A study of Homo sapiens with 14 samples.

Results

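The glycolysis and hypoxia response genes are 37 genes that carry glucose to lactate or answer to low oxygen, and their levels and isoforms were followed across 14 RNA-seq libraries of A549, a human lung carcinoma line. They were chosen by name: glucose and lactate transporters and carbonic anhydrases, glycolytic enzymes, pyruvate dehydrogenase kinases, HIF1A with 1 of its prolyl hydroxylases, and secreted or stress-induced targets of HIF. All 37 matched 1 gene each among the 57756 genes of the deposited tables, with 443 isoforms in all. A mean of at least 1 FPKM (fragments scaled to transcript length and to the mapped fragments of the library) was needed for testing, which 36 of them passed. CA9, a tumour-associated carbonic anhydrase classically induced by hypoxia, was the exception, with a mean of 0.432 FPKM and libraries between 0 and 1.08. No oxygen level, low or normal, is given in the labels, and no comparison was set up as one of oxygen levels.

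The study asked how splicing changes when U2AF1, the small subunit of the factor that binds the AG at the end of introns, is present as wild type or with the cancer-associated S34F substitution. There were 7 groups of 2 libraries. The first was untreated A549. The negative control carried an empty vector and a control siRNA, and is called control siRNA here. In the knockdown the siRNA was against U2AF1, with the same empty vector. In 4 further groups U2AF1 was knocked down and then overexpressed by virus as U2AF1_v1_wildtype, U2AF1_v1_S34F, U2AF1_v3_wildtype or U2AF1_v3_S34F, where v1 and v3 are 2 isoforms of U2AF1. The constructs therefore acted on a knockdown background, and neither the promoter of the virus nor the day of harvest is given. All groups were the same cell line grown in RPMI-1640 with serum, and replicates were not stated to be separate cultures, so p-values measure the spread between these libraries, which may be technical.

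Glycolysis takes glucose in through GLUT transporters, traps it by phosphorylation, commits it at the phosphofructokinase step and splits it to triose phosphates, which are turned to pyruvate and, by lactate dehydrogenase, to lactate. HIF-1 is a transcription factor whose alpha subunit, HIF1A, is hydroxylated and destroyed when oxygen is present. When oxygen is low it binds the core sequence ACGTG or GCGTG near its targets, which include most glycolytic genes. Pyruvate dehydrogenase kinases then inhibit pyruvate dehydrogenase and so limit the oxidation of pyruvate in mitochondria. Many lung carcinomas express this programme in normal oxygen as well.

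U2AF1 itself followed the labels: its mean was 118 FPKM with control siRNA, 22.5 FPKM in the knockdown and 2614 to 3016 FPKM in the 4 construct groups, which is many times the untreated level of 135 FPKM. The relative depth of the libraries ran from 0.798 to 1.20 and the absolute read number is unknown. The S34F replicates numbered 2 lay farthest out on the first principal component of all genes (30.7% of the variance), and in the v1 S34F one a 75-base isoform of AL132768.1 took 33.1% of the summed FPKM. In knockdown replicate 1 an 89-base isoform of MIR1260B took 8.81%, while in the remaining libraries the top isoform took at most 1.06%. By their means, all 8 epithelial markers and all 4 A549 markers were at 1 FPKM or more, while of the other lists only COL1A1 (fibroblast, 1 of 7) and CD14 (leukocyte, 1 of 5) were, with DCN at 0 in every library and the summed endothelial markers at most 0.109 FPKM. Summed mitochondrially encoded transcripts were lowest in replicate 2 of control siRNA (12584 FPKM, against 25454 in replicate 1 and up to 45374 elsewhere), and that library enters every comparison with control siRNA; the part of this in the results was not tested. These are bulk samples, so fewer cells that express a gene and less RNA per cell cannot be told apart.

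Most of the glycolytic chain was abundant in every group. GAPDH, the enzyme that makes the first ATP-yielding intermediate, had the highest level of the members, with a mean of 2304 FPKM, which placed it at rank 15 of the 14233 genes tested. ENO1 (enolase, mean 1328 FPKM), ALDOA (aldolase, 1022), LDHB (939) and LDHA (857, the subunits of lactate dehydrogenase) came next. The 5 lowest of the tested members were HK2 (1.37 FPKM), ANKRD37 (2.36), EGLN3 (2.93), ALDOC (3.01) and PDK1 (3.23), several of them textbook hypoxia targets. GAPDH was also the steadiest member: its 14 libraries lay between 2187 and 2426 FPKM, a ratio of 1.11, and only 2 of the 14233 genes had a smaller SD on the log2 scale. Across the 36 members the median ratio of highest to lowest library was 1.92, against 1.93 over all genes tested. The widest ranges were those of SLC2A3 (a ratio of 4.84), NDRG1 (3.53), ALDOC (3.44) and ADM (3.43). ALDOA, ENO1, GAPDH, LDHA, LDHB, PGK1, PGAM1 and TPI1 have processed pseudogenes, and SLC2A3 has the near-identical copy SLC2A14, so their levels could be affected by how shared reads were divided.

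Against control siRNA, 2 members were lower in the U2AF1 knockdown by limma at an adjusted p under 0.05. They were the phosphofructokinase PFKP and the glucose transporter SLC2A1. That is 2 of 36 (5.56%), beside 2.85% of all 14233 genes (2.06% lower), and a share that small over so few members is no result about the list. Replicates with the same number deviated together in all groups, and with the replicate number as a block 11 of 36 members passed (30.6%), 2 higher and 9 lower, beside 11.8% of all genes (4.69% higher, 7.12% lower). The members' median change was -0.15 on the log2 scale, against -0.01 for all genes, and 12 of 36 lay above 0. Both knockdown libraries lay outside the range of the control siRNA libraries for 22 of the 36 members (6 higher, 16 lower), which is 61.1%, against 51.4% of all genes. With wild-type U2AF1 put back, as the mean of v1 and v3 against knockdown, PDK1 alone was higher (1 of 36, 2.78%, beside 1.43% of all genes, 1.04% higher). With the block 5 members were higher (13.9%, beside 7.52%, 4.97% higher). Wild-type overexpression against control siRNA left PFKP lower (1 of 36, beside 0.436% of all genes, 0.302% lower), and 2 higher and 3 lower members passed with the block (13.9%, beside 3.84%, of which 1.74% higher and 2.11% lower). These comparisons share libraries: the knockdown libraries enter the first and the second, the control siRNA libraries the first and the last, and the wild-type libraries the second and the last.

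No member passed the limma test for S34F against wild type (0 of 36, beside 1.85% of all genes; 2 members and 15.9% of all genes had an unadjusted p under 0.05), and 1 higher and 3 lower members did with the block (11.1%, beside 7.98%, of which 3.27% higher and 4.71% lower). None passed for control siRNA against untreated cells either (0 of 36, beside 0%; 1 member and 5.13% of all genes at an unadjusted p under 0.05), and with the block none did, beside 0.0141% of all genes. For v3 against v1, and for the difference of the S34F effect between the constructs, no member passed, none had an unadjusted p under 0.05 and no gene of the 14233 was called, while 2.19% and 0.71% of genes had an unadjusted p under 0.05. The median of the members was 0.04 for the procedure, 0.08 for re-expression, -0.03 for wild type against control siRNA and -0.05 for S34F, each within 0.1 of the median of all genes.

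**Figure D1:**
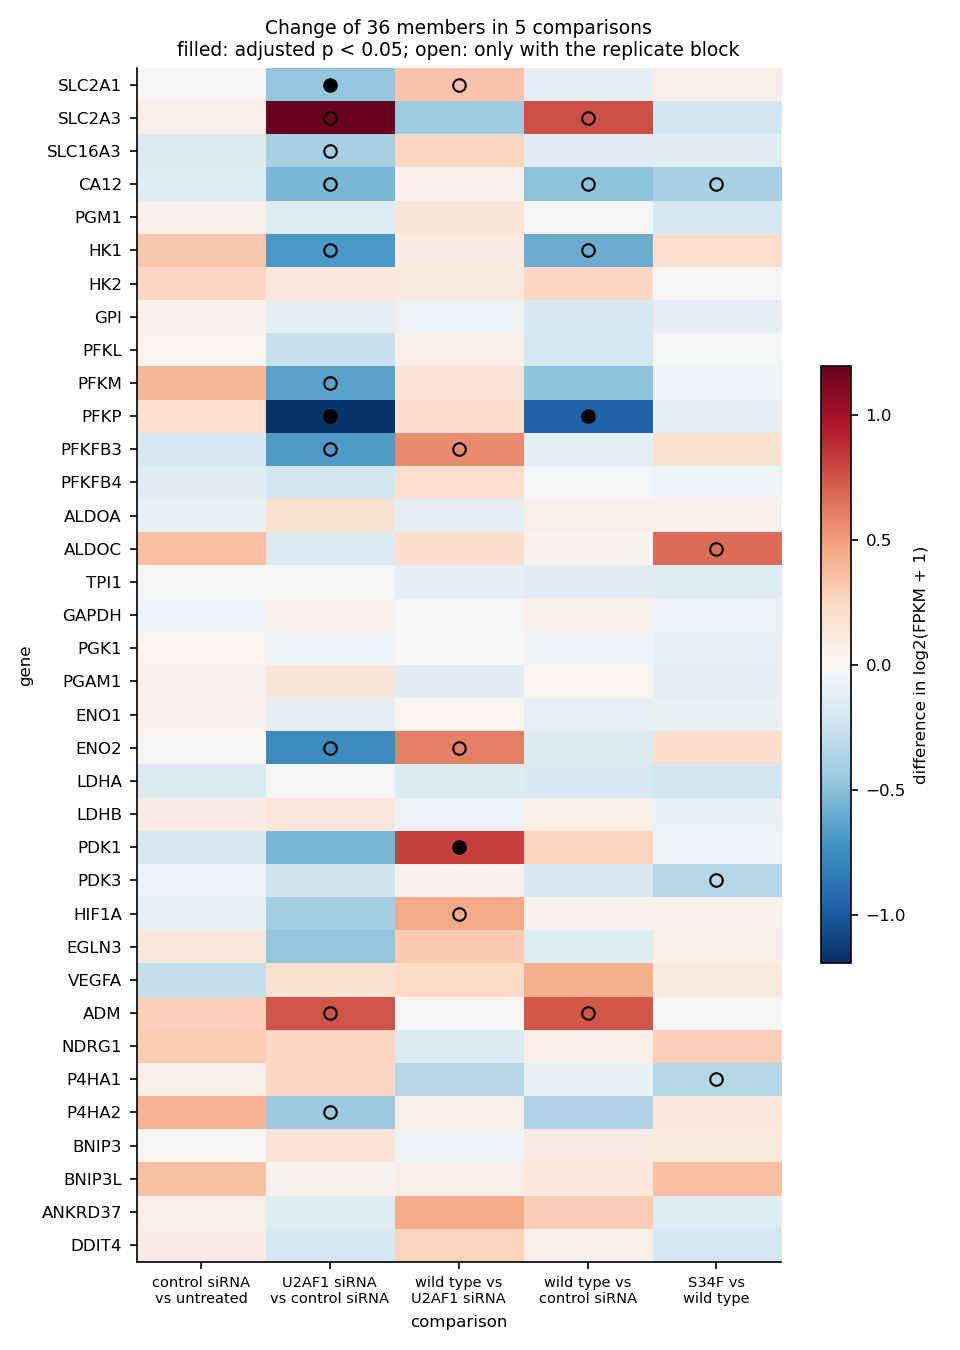
Differences in log2(FPKM + 1) for the 36 tested members (rows, in the order of their roles) in 5 comparisons (columns); red is higher and blue lower in the first-named group. Filled circles mark an adjusted p under 0.05 in the fit without a replicate block and open circles an adjusted p under 0.05 only with it; PFKP has filled circles in 2 columns, and SLC2A1 and PDK1 in 1 each.

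GLUT1, the basal glucose transporter of most cells, is encoded by SLC2A1 (chr1:43391052-43424530, GRCh37). SLC2A1 measured 66.7 and 60.9 FPKM in untreated cells, 65.2 and 62.1 with control siRNA and 46.2 and 45.9 in the knockdown. With the constructs it measured 58.7 and 56.7 (v1 wild type), 65.0 and 60.2 (v1 S34F), 58.6 and 60.5 (v3 wild type) and 62.8 and 60.1 FPKM (v3 S34F). The 2 knockdown libraries were the lowest of the 14, at 72.4% of the control siRNA mean, with the next lowest being 56.7 FPKM. SLC2A1 fell by 0.46 on the log2 scale (SE 0.10, limma, adjusted p = 0.0344). It missed the threshold without any single library of either group, with adjusted p between 0.0881 (without control siRNA replicate 1) and 0.195 (without knockdown replicate 2); without control siRNA replicate 2 it was 0.114 and without knockdown replicate 1 it was 0.157. After wild type was put back SLC2A1 was 0.34 higher than in the knockdown (SE 0.08, adjusted p = 0.0774, and 0.0203 with the block).

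SLC2A3 (chr12:8071826-8088871), which encodes the high-affinity transporter GLUT3, was higher in the knockdown. Its libraries held 27.6 and 11.2 FPKM untreated, 23.9 and 14.5 with control siRNA, and 54.4 and 35.5 in the knockdown. In the construct groups replicate 1 lay between 43.1 and 48.1 FPKM and replicate 2 between 15.8 and 22.7. In every group replicate 1 was the higher library, and only in the knockdown did both exceed both control siRNA libraries. The difference between knockdown and control siRNA was 1.19 (SE 0.64, adjusted p = 0.347), and 0.0049 with the block, where the SE was 0.19. Wild type against control siRNA gave 0.77 (adjusted p = 0.600, and 0.0323 with the block).

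Since FPKM is per length, the levels of both transporters can be set against each other. SLC2A3 made up 26.9% and 18.9% of their sum with control siRNA and 54.0% and 43.6% in the knockdown. In the 8 construct libraries its share was 39.9% to 45.0% in replicate 1 and 20.9% to 28.6% in replicate 2. The knockdown libraries thus had the highest share within each replicate number.

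**Figure D2:**
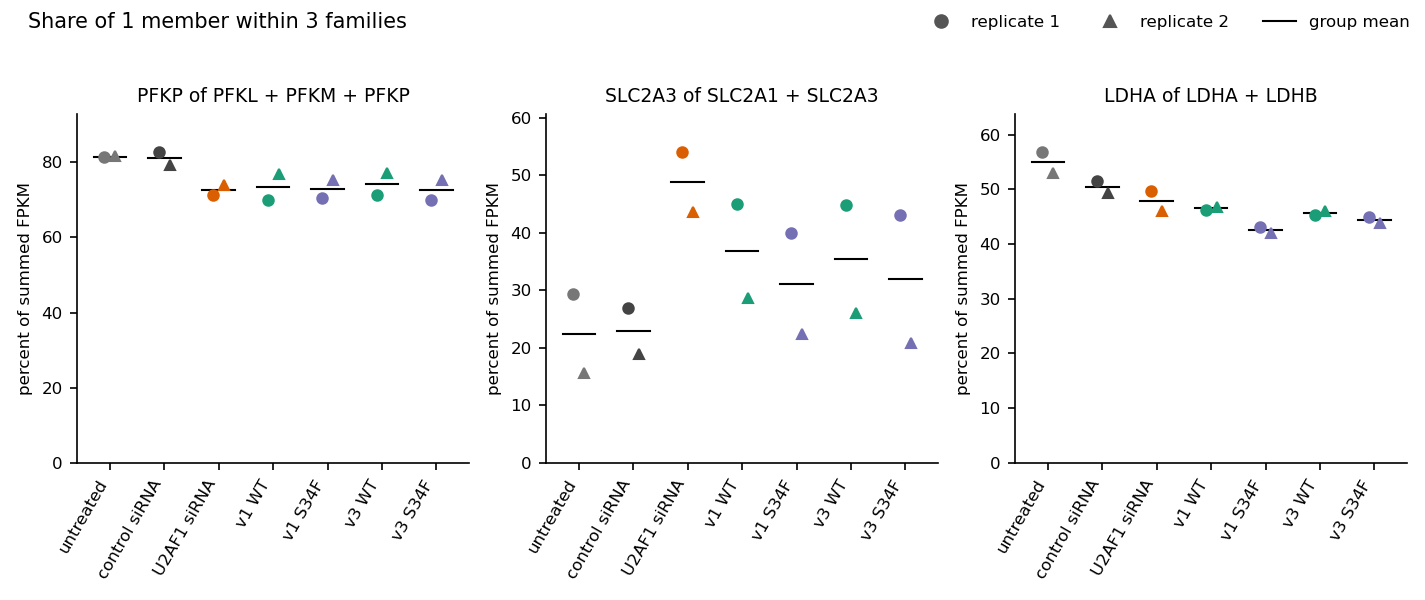
Share of 1 gene in the summed FPKM of its family (vertical axis, percent, from 0) in the 7 groups; circles are replicate 1, triangles replicate 2 and lines the mean of 2 libraries. PFKP is at 79.4 to 82.8% in untreated and control siRNA libraries and at 69.9 to 77.1% in the rest, SLC2A3 is highest in the knockdown, and LDHA is at 56.9 and 53.1% in untreated cells and at 42.0 to 45.0% with S34F.

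The genes for lactate and acid export had lower values in the knockdown. SLC16A3, the lactate and proton exporter MCT4, had means of 35.5 FPKM with control siRNA and 26.9 in the knockdown, a difference of -0.39 that passed only with the block (adjusted p = 0.0397). CA12, a membrane carbonic anhydrase that helps to clear acid, measured 234 and 157 FPKM with control siRNA, 156 and 111 in the knockdown, 124 to 153 with wild type and 80.8 to 142 with S34F. The 2 groups without U2AF1 siRNA held 4 libraries of 157 FPKM or more, and none of the other 10 libraries reached that level. CA12 passed only with the block, in 3 comparisons: knockdown (-0.54, adjusted p = 0.0156), wild type against control siRNA (-0.49, adjusted p = 0.0275) and S34F against wild type (-0.39, adjusted p = 0.0178). CA9 was listed at 1.08 and 1.03 FPKM in untreated cells and at 0.678 or less in the other 12 libraries, too low for a test.

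PFKP (chr10:3108525-3179904, GRCh37), the platelet-type phosphofructokinase that catalyses the committed step, showed the clearest change among the enzymes. It measured 292 and 261 FPKM in untreated cells and 307 and 324 with control siRNA. In the knockdown it measured 132 and 147, with wild type 142 and 192 (v1) and 142 and 176 (v3), and with S34F 135 and 174 (v1) and 135 and 154 (v3). The lowest of the 4 libraries without U2AF1 siRNA (261) was above the highest of the 10 with it (192), and with U2AF1 put back no library reached the control range. The knockdown mean was 44.3% of control siRNA, and PFKP fell by 1.17 on the log2 scale (SE 0.17, limma, adjusted p = 0.0097). Without control siRNA replicate 2, knockdown replicate 1 or knockdown replicate 2 its adjusted p was 0.0784, 0.0741 or 0.0883, with differences of -1.13, -1.10 and -1.25. Wild type against control siRNA was lower by 0.96 (SE 0.15, adjusted p = 0.0314), while wild type against knockdown was 0.21 higher (SE 0.15, adjusted p = 0.528). The call for wild type against control siRNA was lost without v1 wild type replicate 1 (adjusted p = 0.105), v3 wild type replicate 1 (0.116) or 2 (0.0646), or control siRNA replicate 1 (0.0689) or 2 (0.233), with differences of -0.85 to -1.04 on the log2 scale.

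The other phosphofructokinases were less abundant. PFKL, the liver type, ran from 25.3 to 34.5 FPKM over all libraries. PFKM, the muscle type, measured 33.4 and 49.5 FPKM with control siRNA and 24.8 to 32.7 in every other library. Its difference in the knockdown, -0.64 (SE 0.17, adjusted p = 0.0705, 0.0291 with the block), therefore leaned on 1 library: it was -0.36 without control siRNA replicate 2 and -0.91 without replicate 1. It also differed by 0.40 between control siRNA and untreated cells (limma, adjusted p = 0.958), the one difference of a member in that comparison with an unadjusted p under 0.05. PFKP took 79.4% to 82.8% of the summed phosphofructokinase FPKM in the 4 libraries without U2AF1 siRNA and 69.9% to 77.1% in the other 10.

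**Figure D3:**
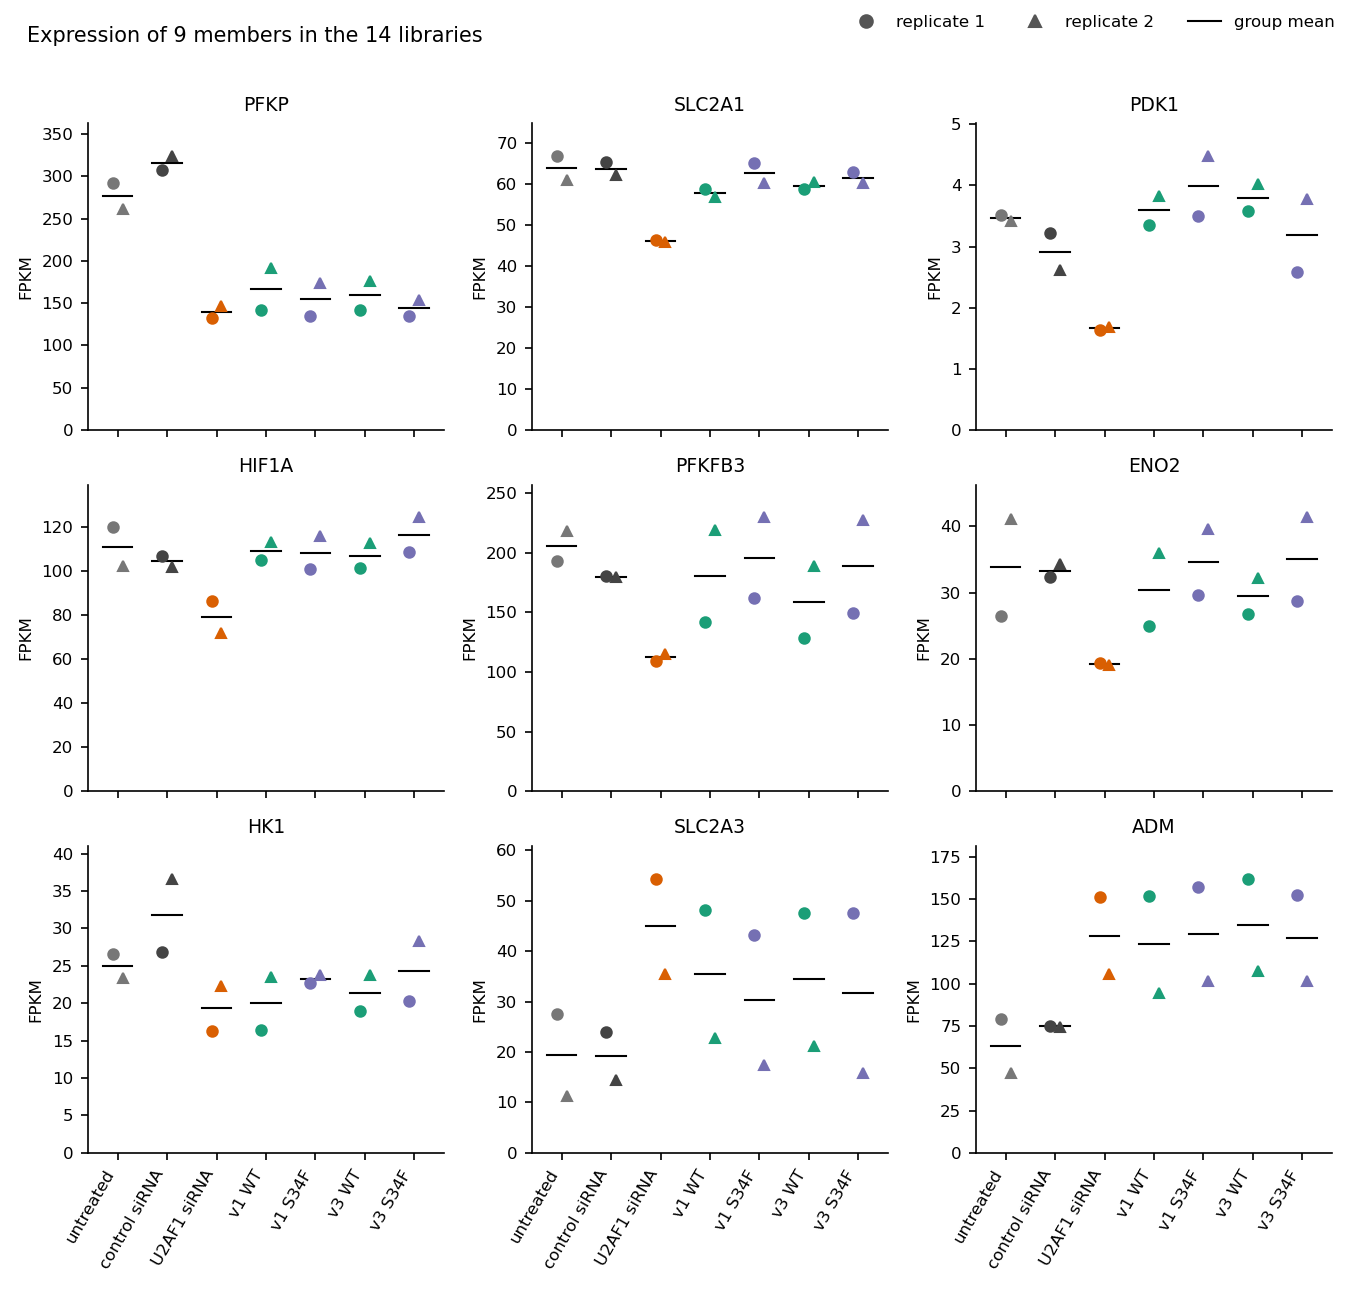
FPKM (vertical axes, from 0) of 9 members in the 7 groups; circles are replicate 1, triangles replicate 2 and lines the mean of 2 libraries. PFKP is at most 192 FPKM in all libraries with U2AF1 siRNA, SLC2A1 and PDK1 are lowest in the knockdown only, and in SLC2A3 and ADM replicate 1 lies above replicate 2 in each group, by 0.1 FPKM for ADM with control siRNA.

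Around that step, hexokinase HK1, which phosphorylates glucose, had means of 31.8 FPKM with control siRNA, 19.3 in the knockdown, 20.0 and 21.4 with wild type and 25.0 untreated. Its control siRNA libraries lay apart, at 26.9 FPKM in replicate 1 and 36.6 in replicate 2. The differences of -0.69 in the knockdown (SE 0.23, adjusted p = 0.138) and -0.59 with wild type against control siRNA (SE 0.20, adjusted p = 0.226) passed only with the block (adjusted p = 0.0205 and 0.0398). Leaving out 1 library gave -0.91 to -0.47 for the knockdown and -0.81 to -0.38 for wild type against control siRNA. HK2, the hypoxia-inducible hexokinase, was at 0.810 and 0.839 FPKM in untreated cells and between 1.05 and 1.82 in all other libraries, and passed nowhere. PFKFB3 (chr10:6186881-6277495) makes fructose 2,6-bisphosphate, the activator of phosphofructokinase. It measured 180.4 and 179 FPKM with control siRNA, 109.6 and 115 in the knockdown, 129 to 219 with wild type and 149 to 229 with S34F. The 2 knockdown libraries were the lowest of the 14, but the spread of the construct libraries was wide, with replicate 2 higher in each. The knockdown difference of -0.67 (SE 0.26, adjusted p = 0.193) and the re-expression difference of 0.56 (SE 0.22, adjusted p = 0.254) passed only with the block (adjusted p = 0.0229 and 0.0363). PFKFB4, a relative of PFKFB3, had group means of 5.10 to 6.67 FPKM and passed in none of the 7 comparisons.

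ALDOC, the brain-type aldolase, was the member with the largest S34F difference. It measured 3.45 and 1.81 FPKM with v1 wild type against 5.04 and 4.85 with v1 S34F, and 2.98 and 2.34 with v3 wild type against 3.76 and 5.19 with v3 S34F. All 4 S34F libraries were above all 4 wild-type ones and above the other 6. The difference was 0.66 (SE 0.19, adjusted p = 0.113, 0.0482 with the block). ALDOA, the main aldolase, was far more abundant per length and stayed between 896 and 1150.2 FPKM. GPI and PGM1, the isomerase and the mutase that feed glucose phosphate in, passed in none of the 7 comparisons, with or without the block.

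Below the triose phosphates most enzymes varied little. TPI1, which interconverts the triose phosphates, and PGK1, PGAM1 and ENO1, which act after GAPDH, had ratios of highest to lowest library of 1.46, 1.31, 1.45 and 1.24 and passed in no comparison. For GAPDH all 4 S34F libraries were below all 4 wild-type ones, at 2187 to 2292 against 2310 to 2412 FPKM. Over the 36 members such separation of S34F from wild type occurred in 2, ALDOC above and GAPDH below (5.56%, against 13.5% of all genes), so it was no more common than elsewhere.

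ENO2 (chr12:7022909-7032861), the neuronal enolase that hypoxia also induces, measured 32.3 and 34.2 FPKM with control siRNA and 19.4 and 19.0 in the knockdown. With wild type it measured 24.9 and 35.9 (v1) and 26.8 and 32.2 (v3), and with S34F 29.6 and 39.7 (v1) and 28.7 and 41.3 (v3). As with SLC2A1 and PFKFB3, the knockdown libraries were the lowest of the 14, and the construct libraries lay around the control level. The share of all genes with their knockdown libraries lowest was not counted, so this order only describes the members in which it is given. Its differences of -0.76 in the knockdown (SE 0.25, adjusted p = 0.128) and 0.60 on re-expression (SE 0.21, adjusted p = 0.209) passed only with the block (adjusted p = 0.0122 and 0.0234). ENO1, the major enolase, had 1165 to 1451 FPKM, so ENO2 was at most 3.42% of their sum.

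LDHA (chr11:18415935-18429972), the subunit that favours lactate production, measured 1110.0 and 1008 FPKM in untreated cells, 962 and 912 with control siRNA and 950.1 and 904 in the knockdown. It measured 841 and 831 with v1 wild type, 754 and 613 with v1 S34F, 844 and 795 with v3 wild type and 799 and 671 with v3 S34F. All 8 construct libraries were below the 6 others. S34F against wild type differed by -0.23 (SE 0.09, adjusted p = 0.213, 0.0538 with the block), and wild type against control siRNA by -0.18 (SE 0.10, adjusted p = 0.498). LDHB, the subunit that favours the reverse reaction, stayed between 841 and 1057 FPKM. The LDHA share of the pair was 56.9% and 53.1% in untreated cells, 51.5% and 49.4% with control siRNA, 49.7% and 46.1% in the knockdown, 45.2% to 46.8% with wild type and 42.0% to 45.0% with S34F. The shares of S34F libraries lay below those of all wild-type libraries, with 45.0 and 45.2% at the nearest; this split was noticed in the data and was not tested.

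Of the kinases that shut pyruvate dehydrogenase, PDK1 (chr2:173420101-173489823, GRCh37) was the more responsive. It measured 3.51 and 3.42 FPKM in untreated cells, 3.22 and 2.61 with control siRNA and 1.64 and 1.69 in the knockdown. With wild type it measured 3.35 and 3.84 (v1) and 3.58 and 4.02 (v3), and with S34F 3.50 and 4.48 (v1) and 2.59 and 3.79 (v3). Both knockdown libraries were below all others, and 7 of the 8 construct libraries lay above both control siRNA libraries. Replicate 1 of v3 S34F (2.59 FPKM) lay below both, just under the lower one (2.61). With wild type put back PDK1 was 0.81 higher than in the knockdown (SE 0.17, limma, adjusted p = 0.0482). That call was lost without any single one of the 6 libraries, at adjusted p of 0.101 (without v1 wild type replicate 1), 0.145 (v1 wild type 2), 0.104 (v3 wild type 1), 0.154 (v3 wild type 2), 0.220 (knockdown 1) and 0.420 (knockdown 2), while the difference stayed between 0.78 and 0.85. The knockdown difference was -0.55 (SE 0.20, adjusted p = 0.167, 0.0705 with the block). At levels this low the added constant of 1 FPKM shrinks log2 differences: with 0.1 FPKM in its place the re-expression difference was 1.10. PDK3, its relative, passed only for S34F with the block (-0.34, adjusted p = 0.0469).

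HIF1A (chr14:62162231-62214976, GRCh37) encodes the oxygen-labile subunit itself. It measured 120.0 and 102 FPKM in untreated cells, 107 and 102 with control siRNA and 86.5 and 71.8 in the knockdown. All 8 construct libraries lay between 101 and 124 FPKM, so the knockdown libraries were again the lowest of the 14. The knockdown difference was -0.40 (SE 0.13, adjusted p = 0.134, 0.0676 with the block) and the re-expression difference 0.45 (SE 0.12, adjusted p = 0.0866, 0.0363 with the block). EGLN3, the prolyl hydroxylase that marks HIF1A for destruction and is itself a HIF target, had means of 3.29 FPKM with control siRNA and 2.16 in the knockdown (-0.46, SE 0.23, adjusted p = 0.325). RNA levels say nothing of HIF1A protein, which is set mainly by its breakdown.

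The secreted and stress-induced targets were mostly not lower in the knockdown. ADM (chr11:10326227-10328944), the vasodilator peptide adrenomedullin, measured 79.0 and 47.2 FPKM in untreated cells and 74.8 and 74.6 with control siRNA. It measured 151 and 106 in the knockdown, 152 and 94.6 with v1 wild type, 162 and 107 with v3 wild type, 157 and 102 with v1 S34F and 152 and 101 with v3 S34F. All 10 libraries with U2AF1 siRNA were above all 4 without it, the mirror image of PFKP. The share of all genes that split this way in either direction, as ADM, PFKP and CA12 did, was not counted. The differences of 0.75 in the knockdown (SE 0.34, adjusted p = 0.261) and 0.74 with wild type against control siRNA (SE 0.29, adjusted p = 0.295) passed only with the block (adjusted p = 0.0115 and 0.0139). VEGFA, the angiogenic growth factor, had means of 23.0 FPKM untreated, 18.9 with control siRNA, 21.5 in the knockdown, 24.6 and 26.6 with wild type and 29.8 and 25.5 with S34F. Its largest difference was wild type against control siRNA, 0.42 (SE 0.14, adjusted p = 0.234, 0.107 with the block).

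P4HA1, a collagen prolyl hydroxylase subunit, passed for S34F with the block (-0.34, adjusted p = 0.0290), and P4HA2, its relative, for the knockdown with the block (-0.43, adjusted p = 0.0485). The P4HA2 means were 22.0 FPKM in untreated cells, 29.1 with control siRNA and 21.3 in the knockdown. The knockdown mean was thus close to that of untreated cells, and control siRNA was above both. P4HA1 measured 20.7 and 11.99 FPKM with v1 wild type, 16.0 and 8.73 with v1 S34F, 19.5 and 13.0 with v3 wild type and 16.0 and 10.3 with v3 S34F, so S34F was the lower library in all 4 pairs of the same construct and replicate number. Without a block its difference was 0.012 when the S34F replicates numbered 2 were both left out, which sets S34F replicate 1 against both wild-type replicates. NDRG1, BNIP3, BNIP3L, ANKRD37 and DDIT4, which act in stress response, mitophagy and mTOR inhibition, passed in none of the 7 comparisons with or without the block. Of the 9 genes of this group, 6 lay above 0 in the knockdown, with a median of 0.15, beside 48.3% above 0 and a median of -0.01 over all genes. Of the 11 enzymes that lead from glucose to triose phosphates 2 lay above 0, with a median of -0.22, and the difference between these groups was not tested.

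HIF binds near gene starts, and the letters ACGTG or GCGTG were searched on both strands in the 250 bases before the annotated start (RefSeq, GRCh38.p14), where 33 of the 37 members had an entry. At least 1 match stood in 21 of 33 members (63.6%) and in 43.2% of 35116 promoters of the same length. Members counted 1 entry each, while the 35116 were limited neither to 1 entry per gene nor to the genes tested here. The difference between these shares was not tested. ACGTG alone stood in 14 of 33 (42.4%) against 18.5%. Of the members that were lowest in the knockdown, HIF1A, PFKFB3 and ENO2 had a match and SLC2A1 and PDK1 had none; nor had PFKP, while ADM had 1. A match is a description of letters and no evidence of binding, and sites farther away were not searched. LDHA is shown because it was low in all libraries with a U2AF1 construct, and ADM because it was high in all libraries with U2AF1 siRNA. Matches are in capitals on whichever strand, and in LDHA capitals that read CACGTG hold a match on each strand.
LDHA promoter, chr11:18394313-18394562, plus strand: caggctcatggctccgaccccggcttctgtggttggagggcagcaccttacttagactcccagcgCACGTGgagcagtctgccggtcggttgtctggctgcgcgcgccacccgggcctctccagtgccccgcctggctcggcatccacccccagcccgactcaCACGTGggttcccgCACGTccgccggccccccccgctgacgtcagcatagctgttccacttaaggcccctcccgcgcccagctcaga
ADM promoter, chr11:10304823-10305072, plus strand: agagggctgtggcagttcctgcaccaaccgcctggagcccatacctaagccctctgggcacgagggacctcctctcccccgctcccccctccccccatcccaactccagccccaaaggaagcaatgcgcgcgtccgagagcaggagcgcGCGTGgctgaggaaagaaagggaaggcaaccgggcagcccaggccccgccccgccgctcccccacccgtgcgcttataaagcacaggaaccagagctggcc

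Isoform usage, an isoform's percent of its gene's FPKM, could be tested for 104 isoforms of the members among 41727. None was called in any of the 7 comparisons, by limma, with or without the block. In the S34F comparison, where 0.748% of all isoforms were called, 8 of the 104 and 11.9% of all isoforms had an unadjusted p under 0.05. For the knockdown, re-expression, wild-type excess over control siRNA, the procedure, v3 against v1 and the S34F difference between constructs, the corresponding counts were 4, 2, 4, 5, 4 and 3 of 104, beside 10.3%, 10.7%, 6.55%, 5.36%, 4.58% and 3.1% of all isoforms. The shares of all isoforms called in those comparisons were 0.117%, 0.362%, 0.0024%, 0.00479%, 0.00479% and 0%.

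The lowest adjusted p with S34F belonged to isoforms of P4HA2 and HIF1A, and an exon by which isoforms differ is shown for each gene. In HIF1A a 127-base exon (chr14:61745691-61745817, plus strand, GRCh38) is absent from ENST00000323441, which then codes for 735 residues where ENST00000337138, with it, codes for 826; the shorter product is known to lack the C-terminal transactivation domain. The exon is shown in capitals between the ends of its neighbours, and below it the intron end that precedes it, as read from a retained-intron transcript, whose last bases TAG are in capitals; the base before AG is where S34F is known to alter preference.
HIF1A 127-base exon: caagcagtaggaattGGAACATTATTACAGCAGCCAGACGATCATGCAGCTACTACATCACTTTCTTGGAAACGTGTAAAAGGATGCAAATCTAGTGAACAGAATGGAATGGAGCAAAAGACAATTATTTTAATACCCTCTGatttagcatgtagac
HIF1A intron end: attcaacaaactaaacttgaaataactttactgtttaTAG

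Isoforms that span this exon held 70.0% to 83.8% of HIF1A FPKM, and among them the isoform without it made up 4.63% and 4.48% in untreated cells, 8.08% and 4.75% with control siRNA and 7.78% and 11.4% in the knockdown. It made up 10.0% and 11.0% with v1 wild type and 20.7% and 23.6% with v1 S34F, and 9.12% and 8.19% with v3 wild type and 13.1% and 13.8% with v3 S34F. All 4 S34F libraries were above the other 10, and v1 S34F above v3 S34F. The usage of ENST00000323441 differed by 6.79 points between S34F and wild type (SE 1.78, adjusted p = 0.141), short of the threshold. The exon-level shares were chosen after the values were seen and have no test of their own. A further variant of HIF1A, the use of 3 more bases (TAG) at the start of an exon, was read from isoforms holding 77.7% to 90.1% of its FPKM. Of that, 2 isoforms with the bases made up 21.9% to 30.5% in 13 libraries and 46.4% in replicate 1 of untreated cells. In that library 1 of the 2, ENST00000394997, had its lowest usage of the 14 (9.04% of the gene), so most of the 46.4% came from the other.

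In P4HA2 (chromosome 5, minus strand) an exon of 60 bases (chr5:132198321-132198380, GRCh38) and one of 66 bases (chr5:132198206-132198271) are used in turn, as the shared flanks in lower case show.
P4HA2 60-base exon: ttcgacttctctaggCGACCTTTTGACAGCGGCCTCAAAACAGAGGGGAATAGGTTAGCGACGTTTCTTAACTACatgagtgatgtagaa
P4HA2 66-base exon: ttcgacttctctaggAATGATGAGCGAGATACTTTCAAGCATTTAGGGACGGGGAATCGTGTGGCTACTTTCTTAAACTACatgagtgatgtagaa

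Isoforms with either exon held 77.8% to 95.3% of P4HA2 FPKM, and of that the 60-base exon made up 57.8% and 56.4% in untreated cells, 54.0% and 63.6% with control siRNA and 57.0% and 58.9% in the knockdown. It made up 64.3% and 65.8% with v1 wild type and 80.2% and 85.0% with v1 S34F. For v3 it was 59.7% and 60.7% with wild type and 64.7% and 82.3% with S34F. The v1 S34F libraries and replicate 2 of v3 S34F were above all wild-type libraries, and the other v3 S34F library lay inside the wild-type range. Of single isoforms, ENST00000379086, which has the 60-base exon, made up 31.7% and 26.3% of the gene with v1 S34F against 4.0% and 5.9% with v1 wild type, and 10.9% and 13.3% with v3 S34F against 14.4% and 11.4% with v3 wild type. Its S34F difference was 11.6 points (SE 2.50, adjusted p = 0.0796, and 0.0489 when only genes of at least 5 FPKM were tested) and the difference between constructs -24.8 points (SE 5.00, adjusted p = 0.850). ENST00000166534, with the 66-base exon, differed by -13.3 points (SE 3.97, adjusted p = 0.197).

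**Figure D4:**
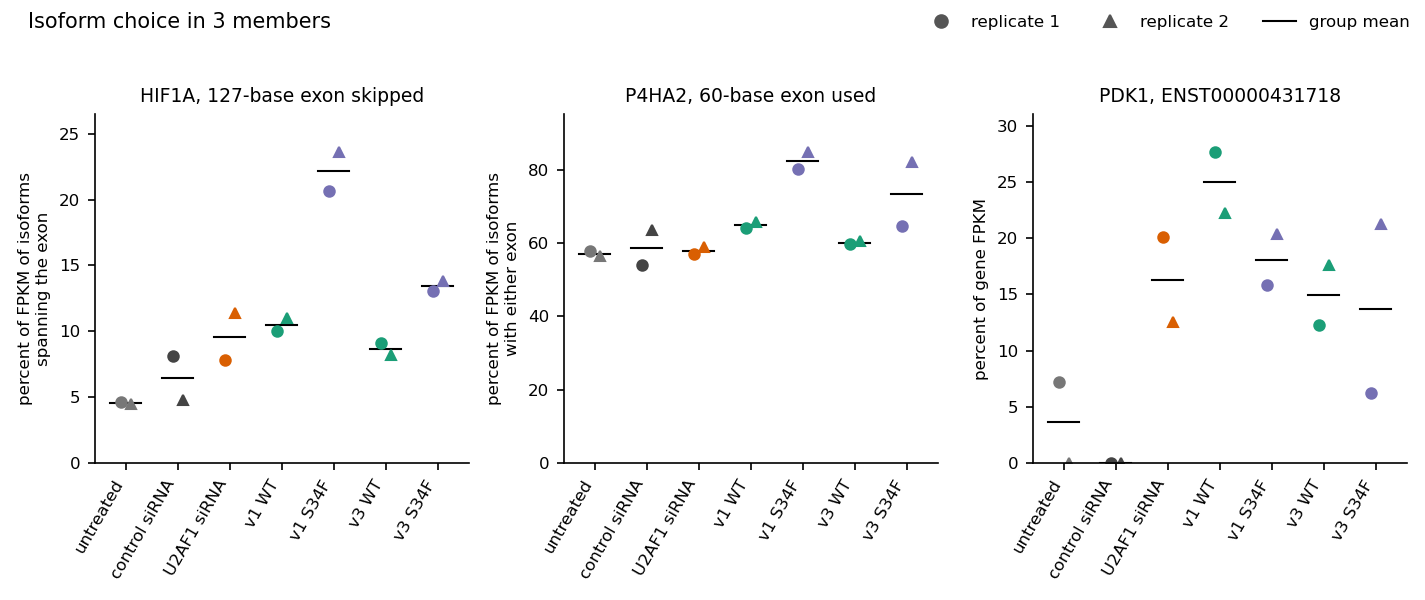
Isoform choice (vertical axes, percent, from 0) in HIF1A, P4HA2 and PDK1 for the 7 groups; circles are replicate 1, triangles replicate 2 and lines the mean of 2 libraries. Skipping of the HIF1A exon is highest with v1 S34F (20.7 and 23.6%), use of the 60-base P4HA2 exon likewise (80.2 and 85.0%), and the PDK1 isoform is at 0 in both control siRNA libraries.

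Isoforms of other members that were named for their large differences also missed the threshold. In PDK1, ENST00000431718, annotated as a target of nonsense-mediated decay, was at 0% in both control siRNA libraries. It was at 7.23% and 0% in untreated cells and was present in all libraries with U2AF1 siRNA. There it made up 20.1% and 12.5% in the knockdown, 12.2% to 27.7% with wild type and 6.18% to 21.3% with S34F. Wild type differed from control siRNA by 20.0 points (SE 4.57, limma, adjusted p = 0.507), in a gene of only 1.64 to 4.48 FPKM. PFKL ENST00000349048, its main coding form, made up 84.2% and 86.3% with control siRNA and 70.4% and 67.3% in the knockdown (-16.3 points, SE 4.32, adjusted p = 0.221). SLC2A1 ENST00000426263 was 12.3 points higher with wild type than with control siRNA (SE 3.74, adjusted p = 0.656), where 1 control library stood at 59.5% and the other at 72.8%. ALDOC ENST00000395319 differed by 42.6 points between control siRNA and untreated cells (SE 12.6, adjusted p = 0.813), and PFKFB4 ENST00000467176 by 9.53 points between v3 and v1 (SE 2.81, adjusted p = 0.792).

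Many members differed with the replicate number, in a comparison that uses all 14 libraries and so has smaller errors than those between groups. With a mean per group, 14 of 36 members differed between replicates numbered 2 and 1 (38.9%, beside 27.1% of all genes; 5 higher, beside 15%, and 9 lower in replicate 2, beside 12.1%), a comparison added after the data were seen. SLC2A3 was lower by 1.07 on the log2 scale (SE 0.10, limma, adjusted p = 0.00016), NDRG1 by 0.96 (SE 0.07, adjusted p = 3.1e-05), P4HA1 by 0.61 and ADM by 0.53, all of them hypoxia-inducible genes. NDRG1, a stress-induced growth regulator, shows the size: it measured 99.5 and 39.4 FPKM in untreated cells, 100.4 and 59.8 with control siRNA, 120.0 and 70.4 in the knockdown, 119 and 53.7 with v1 wild type, 136 and 72.7 with v1 S34F, 118 and 59.7 with v3 wild type and 139 and 73.4 with v3 S34F. Replicate 1 was above every replicate 2, whatever the treatment. BNIP3L, CA12, PDK3, P4HA2 and PGM1 were also lower in replicate 2, whereas SLC16A3 (0.42), PFKFB3, PFKFB4, ENO2 and HK1 were higher. PFKFB3, PFKFB4 and ENO2, which are hypoxia-inducible as well, thus went against SLC2A3, NDRG1, P4HA1 and ADM. Without the 2 outlying S34F libraries the count was 10, and ENO2, HK1, PFKFB3 and PFKFB4 no longer passed. HK1 was the least secure: its adjusted p was 0.0601 to 0.0854 without any single library of the control siRNA, knockdown, v1 wild type, v3 wild type or v3 S34F groups.

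Direction agreed in all 7 groups for 13 of the 36 members (36.1%; 11 lower, 2 higher in replicate 2), against 21.2% of all genes. The labels do not say what the numbers stand for, such as a day or a batch of cells, and what differed between the series was not tested.

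**Figure D5:**
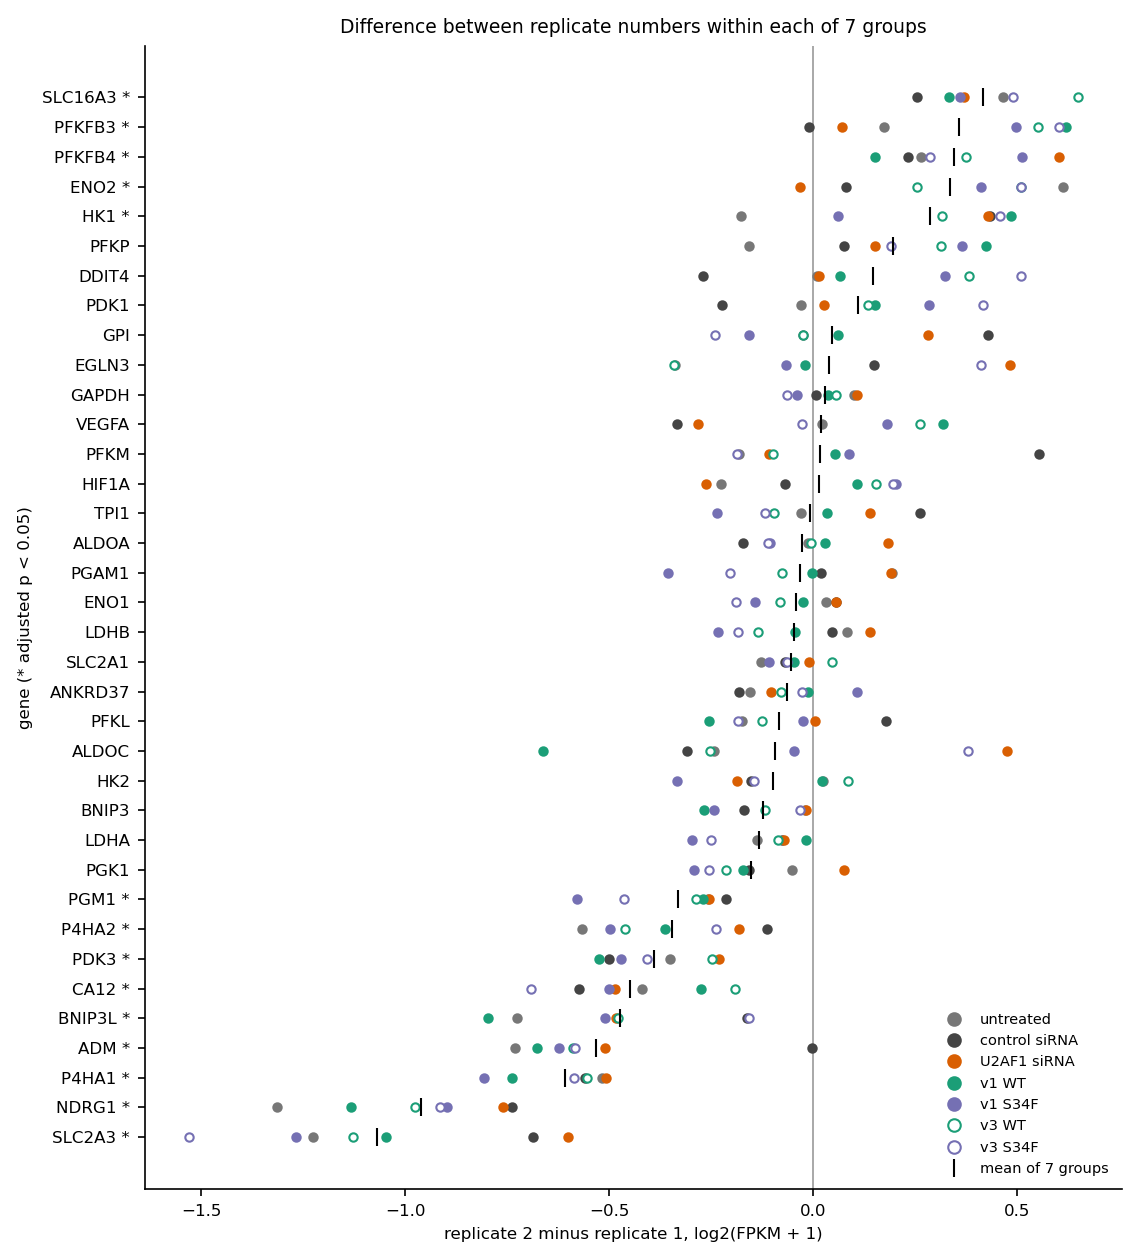
Difference between replicate 2 and replicate 1 in log2(FPKM + 1) (horizontal axis) for the 36 tested members, 1 point per group, with a bar at the mean of 7 groups; stars mark an adjusted p under 0.05. SLC2A3 and NDRG1 are lower in replicate 2 in every group, while SLC16A3 and PFKFB4 are higher in every group.

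Other genes of these pathways, from lists that hold none of the 37, mostly passed no test, beside shares of all genes called of 2.85% in the knockdown, 1.43% on re-expression, 0.436% for wild type against control siRNA and 1.85% for S34F. Of 15 further glycolysis and glycogen genes, 1 fell in the knockdown: PYGB, a glycogen phosphorylase, from 99.5 ± 16.6 to 66.1 ± 3.58 FPKM (SD, n = 2; -0.57, adjusted p = 0.0315). PYGB was also lower with wild type than with control siRNA (-0.59, adjusted p = 0.0411), and HKDC1, a hexokinase relative, rose on re-expression from 34.7 ± 11.2 to 58.1 ± 1.09 (v1) and 59.1 ± 4.71 FPKM (v3; 0.77, adjusted p = 0.0450). None of 12 genes for pyruvate entry to mitochondria passed in the 7 comparisons, with 1, 1, 2, 3, 4, 0 and 0 at an unadjusted p under 0.05 in the order procedure, knockdown, re-expression, wild-type excess, S34F, construct and S34F by construct. The shares of all genes at that p were 5.13%, 18.9%, 15.8%, 13.6%, 15.9%, 2.19% and 0.71%.

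Of 16 genes of HIF and oxygen sensing, CITED2, which competes with HIF1A for its coactivator and is itself hypoxia-inducible, rose from 5.64 ± 0.542 FPKM with control siRNA to 13.3 ± 0.0765 in the knockdown (SD, n = 2; 1.11, adjusted p = 0.0426). With wild type it was 13.5 ± 1.46 (v1) and 17.9 ± 3.30 FPKM (v3; 1.32 against control siRNA, adjusted p = 0.0353). Of 34 further hypoxia-inducible genes only IGFBP3, which binds insulin-like growth factors, passed: it rose from 170.2 ± 12.7 to 299.7 ± 33.5 FPKM in the knockdown (0.81, adjusted p = 0.0081) and to 356 ± 7.13 (v1) and 404 ± 21.7 FPKM (v3) with wild type (1.15, adjusted p = 0.00075). No gene of these 2 lists passed for S34F by limma, with 2 of 16 and 10 of 34 at an unadjusted p under 0.05, beside 15.9% of all genes. CITED2, PYGB and HKDC1 each lost their calls without 1 library: in the knockdown, adjusted p was 0.0876 to 0.220 for CITED2 without any 1 of the 4 libraries, and 0.157 for PYGB without control siRNA replicate 2, 0.176 without knockdown replicate 1 and 0.163 without knockdown replicate 2. HKDC1 had an adjusted p of 0.490 without knockdown replicate 2 and 0.0909 to 0.143 without any 1 of the wild-type libraries. In the comparison of wild type with control siRNA, CITED2 had 0.0724 to 0.268 without any 1 of the 6 libraries, and PYGB 0.108 to 0.267 without any 1 of them but control siRNA replicate 1. IGFBP3 in the knockdown had 0.0557 without control siRNA replicate 2 and 0.0608 without knockdown replicate 1.

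With the replicate number as a block the lists held more calls, as did all genes, of which 11.8% were called in the knockdown, 7.52% on re-expression, 3.84% for wild type against control siRNA and 7.98% for S34F. With so few genes a list, these counts are a description and set no list apart from all genes. In the knockdown, 2 of the 15 glycolysis and glycogen genes (PFKFB2, PYGB) were lower. Of the 16 HIF genes 1 was higher (CITED2) and 2 were lower (ARNT and ARNT2, partners of HIF alpha subunits). Of the 34 further hypoxia-inducible genes 4 were higher (FAM162A, IGFBP3, MXI1, SLC2A14) and 2 lower (STC1, VLDLR), so these targets did not share a direction. On re-expression 2 of 15 (HKDC1, PFKFB2) and 4 of 34 (HILPDA, IGFBP3, KDM4B, VLDLR) were higher and 1 of 34 lower (MXI1). For wild type against control siRNA, 1 of 15 (PYGB), 1 of 12 (PDK4), 1 of 16 (ARNT2) and 1 of 34 (STC1) were lower, and 1 of 16 (CITED2) and 3 of 34 (FAM162A, IGFBP3, SLC2A14) higher. For S34F, 1 of 15 (PFKFB2), 1 of 12 (PDP1), 1 of 16 (CITED2) and 1 of 34 (ERO1L) were higher, and 1 of 15 (PGM2), 2 of 12 (PDHX, PDK4), 1 of 16 (EGLN1) and 3 of 34 (FAM162A, RORA, VLDLR) lower.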

How the data were processed

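RNA from 14 A549 libraries was sequenced. Trimming by Trimmomatic 0.30 and mapping to GRCh37 by TopHat2 2.0.12 are named in the submitters' processing notes, and neither a quantifier, nor an annotation release, nor strand is stated there or in the labels. The deposited tables hold, per the file headers, FPKM for each of 195553 isoforms, with coverage, and the coverage per FPKM served only for the relative depth. Strand being unknown, overlapping and antisense genes can share reads.

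FPKM were summed per gene, and log2(FPKM + 1) was tested with limma 3.58.1 (R 4.3.3, intensity trend) on all 14 libraries, with a mean per group, 7 residual degrees of freedom and Benjamini-Hochberg adjustment over 14233 genes. These had a mean of at least 1 FPKM and every isoform estimate marked OK. Of 14244 genes at that mean, 11 were left out for their status. The added 1 understates changes of low genes. Isoform usage (5% to 95% on average) was tested without the trend over 41727 isoforms of 11666 genes. The re-expression, wild-type and S34F comparisons average v1 and v3. In all 21 pairs of groups the deviations of same-numbered replicates correlated (0.160 to 0.571), so a fit with the replicate number as a block is given where it changes a call. Named members were those called, up to 3 of the largest changes per comparison with an unadjusted p under 0.05, the 5 of highest level and a fixed list by role; isoforms likewise at 0.01. Other members were named after their values were seen, as were the exon-level shares. Members and lists were chosen with earlier results of these data known. Isoform structures came from GENCODE release 29 (GRCh38) and promoters from RefSeq. Scripts were tested on simulated data. Alternatives changed the pseudocount, filter, scaling, libraries in the fit, block and replicates. Tables were handled in Python 3.11.15 (pandas 2.3.3, numpy 2.4.6, matplotlib 3.10.9).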

Additional observations from a re-analysis of the deposited data

How the results depend on the processing

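Of 986 alternative values over 62 results, 882 kept their direction and side of the threshold, 80 no longer passed, 23 newly passed and 1 reversed. With the replicate number as a block, the number of members called was 11 for the knockdown, 5 for re-expression, 5 for wild type against control siRNA and 4 for S34F, and it changed no other call count of the members. With only the groups of the comparison in the fit the first 3 counts were 0. With no filter on mean FPKM the counts for re-expression and for wild type against control siRNA were 0, and for re-expression also with a mean FPKM of at least 5, a pseudocount of 10 or quantile normalization. PDK1, the member concerned, lies under 5 FPKM and so was not tested there; the other causes were not tested. Leaving out 1 library gave 0 to 2 members for the knockdown, 0 to 0 for re-expression and 0 to 1 for wild type against control siRNA. For isoform usage with S34F, 1 isoform passed where the gene mean was at least 5 FPKM. Fewer isoforms were then tested and the fit was made on them alone, and which of these mattered was not tested. P4HA1 with S34F was 0.012 in place of -0.34 without replicate 2 of v1 S34F and of v3 S34F, an alternative chosen after seeing the data, and -0.54 without replicate 1 of v1 S34F. Both leave the replicate numbers unbalanced between S34F and wild type, and P4HA1 was lower in replicate 2 in 7 of 7 groups, while S34F was lower than wild type in all 4 same-numbered pairs. Over all genes the knockdown count of 405 became 1681 with the block, 241 with no filter, 0 with only its groups and 15 to 274 without 1 library, and the S34F count of 264 became 1136, 39 with only its groups and 47 to 332 without 1 library. For re-expression 203 became 1070 with the block, 120 with a pseudocount of 10, 20 with only its groups and 5 to 57 without 1 library, and for wild type against control siRNA 62 became 547, 1 and 5 to 34. Read numbers are unknown, so no counting interval can be given, and with 2 libraries a group most calls rest on each of them.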
